A study of Mus musculus with 10 samples.

Results

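Genes that mark monocytes and macrophages were followed in the left ventricle of the mouse heart after transverse aortic banding (TAB), a surgical narrowing of the aorta that loads the heart with pressure. The 44 genes were chosen by name as markers and fall into 8 groups by role. The array carries a probe under the symbol of 41 of them, with 50 probes among 26423, and 39 are among the 16113 genes tested. Adult male C57BL/6J mice, 8 weeks old at the start and with no engineered allele named, underwent TAB or a sham operation, and total RNA of the left ventricle was taken 3, 5, 7, 14 or 28 days later. There is 1 sample per operation and day, hence 5 TAB and 5 sham samples, and the number of mice behind a sample is not stated in the sources used here. The day 14 TAB sample carries 15 days in 1 of its labels and 14 in the others, and it was taken as day 14.

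Macrophages live in the healthy heart as resident cells, some of them seeded before birth and renewing in place, and more arrive as blood monocytes when the tissue is stressed. Both carry the receptor Csf1r, whose ligands are Csf1 and Il34, and depend on the transcription factor PU.1, the product of Spi1. Timd4, Lyve1, Folr2 and Cd163 are used as marks of long-lived resident cells, whereas Trem2, Gpnmb and Lgals3 are used for cells that enter or change in injured tissue. The samples are RNA of whole tissue, so more cells of a type and more RNA per cell cannot be told apart in any value below.

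Levels are normalized intensities, in arbitrary units of probe brightness after the arrays were put on a common scale, and are comparable between samples for 1 probe but not between probes. Values for a gene are listed in the order of days 3, 5, 7, 14 and 28. A log2 ratio is TAB over sham of the same day, so 1 stands for a doubling. The average ratio over the 5 days was tested with limma with the day as a block and called at a Benjamini-Hochberg adjusted p under 0.05 over all genes. A single day has 1 sample per operation and no test, and a gene was called up-regulated there when its log2 ratio was over 2 SDs of all genes' ratios of that day, which took a ratio of 1.78, 1.93, 1.75, 1.48 and 1.38 on the 5 days. The median raw intensity of an array was 34 to 55 in TAB and 42 to 57 in sham, and 40.2 to 47.3% of the spots of an array carried a negative flag, read here as a spot that the scanner software did not find. The 7 cardiomyocyte genes measured, which mark heart muscle but not the left ventricle, were found on all 10 arrays, and their summed level was 177637 to 196866 in TAB and 184390 to 210349 in sham. Most of these probes are among the brightest, where the common scale gives every array the same set of values. The likeness of the sums is thus largely set by the normalization and is no measure of muscle content.

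Of the 39 genes tested, 27 were higher in TAB than in sham on average over the days, against 9.19% of all genes, and 1 was lower, against 7.87% of all genes. The gene that fell was Retnla. The other 11 genes did not pass the test. In 27 genes the 5 TAB samples all lay above the 5 sham samples, a pattern that 9.99% of all genes showed, and in 1 gene they all lay below, against 7.76% of all genes. Fcgr4 and Gpnmb were called but overlapped, and Lyz1 and Plek did not overlap but were not called. The median average log2 ratio of the 39 genes was 1.02, that of all genes −0.03. The ratio was above 0 on all 5 days in 28 of the 39 genes and below 0 on all 5 days in Retnla and Timd4. The shares of all genes with such ratios were not computed. Mpeg1 averaged 3.02 on a probe that no sham array found and 2.24 on a brighter probe found on all arrays. Among the other genes the largest average effects were those of Fcgr4 (2.53), Ms4a7 (2.51), Trem2 (2.49) and Retnla (−2.30) on the log2 scale. The plot of average effects shows every gene with its 5 ratios.

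**Figure D1:**
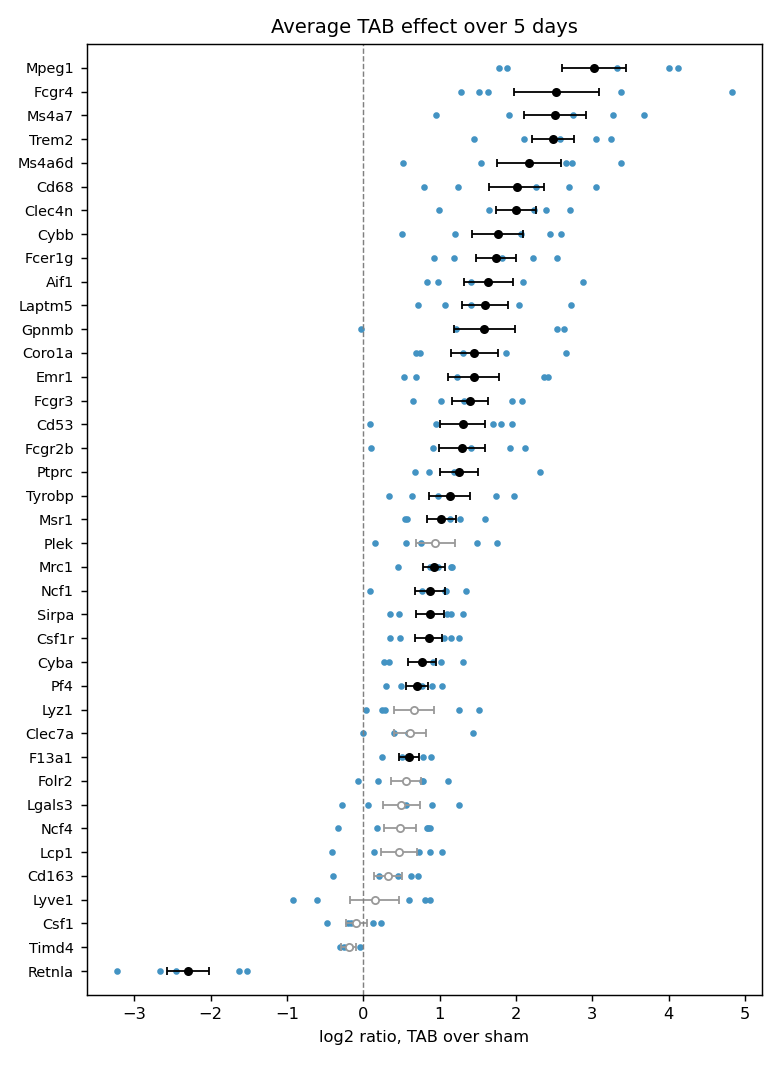
Average TAB effect on the 39 genes tested, as the log2 ratio of TAB over sham (horizontal axis) per gene (rows). Large points with bars are the mean over 5 days ± SE, filled black where the adjusted p is under 0.05 and open grey where it is not, and small blue points are the ratios of the single days. The 27 genes called higher lie right of 0, and Retnla alone is called lower, at −2.30.

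These counts rest on the 5 pairs of days together. Without the day 3, the day 5 or the day 7 pair, 0 genes of the list passed the test in either direction, without the day 14 pair 9 were higher and without the day 28 pair 28 were, the 27 and Plek. The count of higher genes over the whole array fell from 1481 to 29, 86, 20 and 565 without the day 3, 5, 7 and 14 pairs. All 27 called genes kept an average ratio above 0 in each of these fits. At an unadjusted p under 0.05, 32 of the 39 passed in the full fit, against 35.7% of all genes, and between 29 and 33 with a pair left out, against 27.6 to 36.5% of all genes. With probes under the intensity minimum kept and set to 1, 7 of the 27 stayed called, namely Mpeg1, Ms4a7, Mrc1, Trem2, Clec4n, Fcgr3 and Fcer1g. Of all called genes on the array, 53.9% were higher in the main normalization and 67.6% under median scaling alone, where the same 27 genes of the list and Plek were called.

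The ratios were highest in the first week. Among the 27 called genes the highest ratio fell on day 5 in 14 genes, on day 7 in 12 and on day 14 in 1, which was Mrc1. From day 3 to day 5 the ratio increased in 22 of the 27. From day 7 to day 14 it decreased in 26 of them, and from day 14 to day 28 in 26. The shares of all genes with these peak days and changes were not computed. The median log2 ratio of the 39 genes was 1.11, 1.59, 1.48, 0.74 and 0.46 on the 5 days, and the median fold was 2.16, 3.02, 2.80, 1.67 and 1.37. In 24 of the 27 genes both late ratios (days 14 and 28) lay below all 3 early ones (days 3, 5 and 7). Among all 39 this held for 28, and among all genes of the array for 17.1%.

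On day 3, 8 of the 39 genes were called up-regulated by size, against 3.1% of all genes. The count was 17 on day 5, against 4.09%, and 17 on day 7, against 4.08%. It was 7 on day 14, against 3.39%, and 2 on day 28, against 3.41%. The day 28 genes were Mpeg1 and Trem2, which were also the 2 called on all 5 days. The Mpeg1 call rests on the probe that no sham array found. With the brightest probe of each gene, Mpeg1 was at 1.29 on day 28, under the 1.33 needed for a call, and Trem2 alone was called there and on all 5 days. With values below 1 kept and set to 1, neither gene was called on day 28. At least 1 day was called in 19 genes. The shares of all genes called on at least 1 day or on all 5 days were not computed, so these counts have no background. With a fixed log2 ratio of 1 in place of the 2 SDs the counts were 24, 29, 26, 13 and 4, against 10.1, 11.6, 10, 7.61 and 5.96% of all genes.

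The limma test of the difference between the early and the late days called 0 of the 39 genes, as it did over all genes (0%). The lowest adjusted p among the 39 was 0.302, for Mpeg1, and 0.191 over all genes. At an unadjusted p under 0.05 it passed in 26 of the 39, against 11% of all genes. With an intensity trend and robust settings in limma, Cd68 was called. The decline is given here as a count of ratios, since the adjusted test passed for none of the 39 in the main setting.

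**Figure D2:**
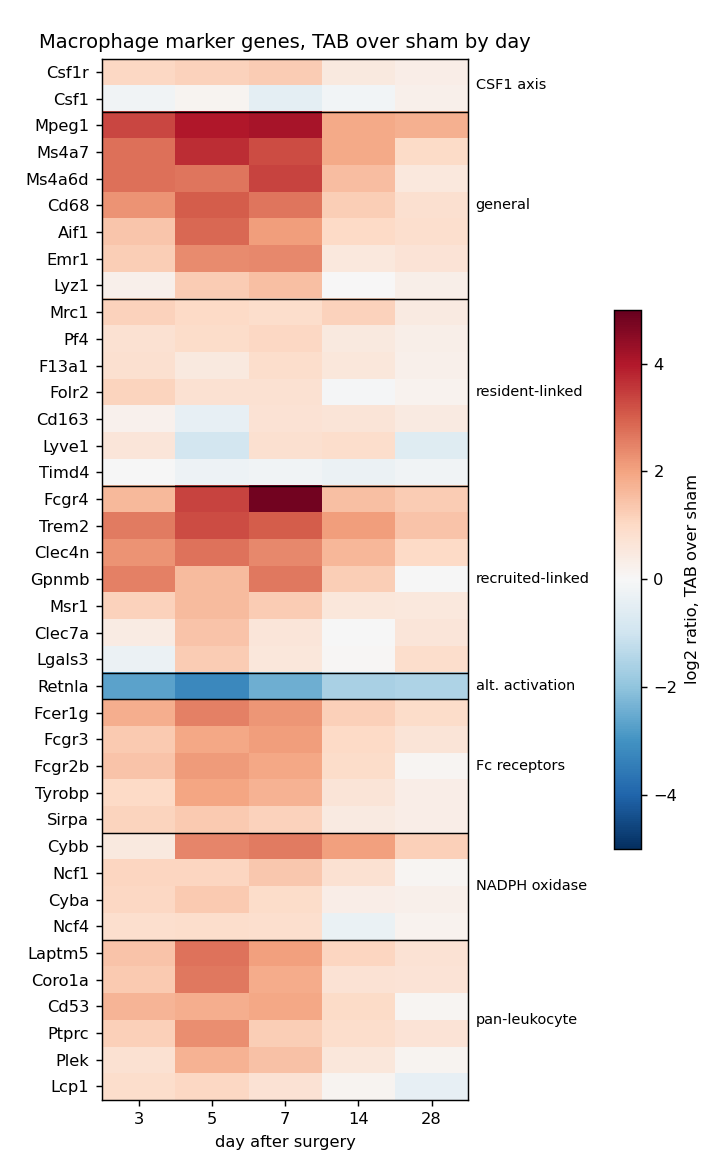
Log2 ratio of TAB over sham (colour) for the 39 genes tested (rows, grouped by role) on days 3, 5, 7, 14 and 28 (columns, drawn at equal spacing). Red cells are higher in TAB and blue cells lower. Most rows are darkest on days 5 and 7 and pale on day 28, the 4 lowest resident-linked rows are pale, and Retnla is blue on all 5 days.

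Csf1r is a receptor tyrosine kinase of monocytes and macrophages, and Csf1 is one of its ligands. The Csf1r intensity in TAB was 1247, 1181, 1259, 924 and 727 and in sham 601, 535, 529, 661 and 571. The TAB samples all lay above the sham samples, and those of the late days were closest to them. The average log2 ratio was 0.86 ± 0.17 (SE), a 1.81-fold change (limma adjusted p = 0.0295). The ligand Csf1 had TAB intensities of 669, 697, 519, 608 and 716 and sham intensities of 765, 638, 724, 677 and 608. The operations overlapped, and TAB was the higher of the pair on days 5 and 28 and the lower on the others. Its average log2 ratio was −0.09 ± 0.14 (SE), adjusted p = 0.67, and its sign turned to 0.0030 under median scaling alone. The second ligand, Il34, which is not on the list, was higher at 0.66 ± 0.17 (SE) with an adjusted p of 0.048.

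Spi1 encodes PU.1, the lineage factor that switches on many myeloid genes. No probe carries that symbol, but 1 probe carries its older symbol Sfpi1. That probe was found on all 10 arrays, with TAB intensities of 168, 157, 201, 192 and 229 and sham intensities of 198, 221, 239, 298 and 370.1. Each TAB sample was below the sham sample of its day, although the operations overlapped across days. The average log2 ratio was −0.46 ± 0.12 (SE) with an adjusted p of 0.0468, just inside the threshold. The direction is opposite to that of most macrophage genes of the list, and of 15 alternative settings 6 kept both its direction and its call. It was matched by a synonym and is not counted among the 39.

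The general markers had a median average log2 ratio of 2.01, and 6 of the 7 tested were higher. Cd68, a lysosomal membrane glycoprotein of macrophages, measured 1704, 2098, 2103, 599 and 549 in TAB and 356, 254, 326, 253 and 315 in sham. The 3 early TAB samples stood far above the rest, and every TAB sample was above every sham sample. Its log2 ratio was 2.01 ± 0.36 (SE), 4.02-fold on average and 8.25-fold on day 5 (adjusted p = 0.0235). Emr1 encodes F4/80, the surface receptor most used to stain mouse macrophages. Its TAB intensities were 801, 962, 1008, 462 and 362 and its sham intensities 343, 186, 189, 318 and 225. The groups did not overlap, with the lowest TAB value on day 28 and the highest sham value on day 3. The average was 1.45 ± 0.34 (SE), adjusted p = 0.0384, and the day 7 ratio was 5.34-fold. Aif1, the calcium-binding protein Iba1, measured 492, 727, 697, 221 and 284 in TAB and 186, 98.7, 163, 112 and 159.7 in sham. Its sham values were all under its lowest TAB value, and its average was 1.64 ± 0.32 (SE) (adjusted p = 0.0272).

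Mpeg1 encodes perforin-2, a pore-forming protein that macrophages use against bacteria. The probe chosen by the largest ratios measured 127, 191, 162, 62.6 and 48.5 in TAB and 12.7, 11.8, 9.36, 17.01 and 14.1 in sham. It was found on all 5 TAB arrays and on none of the sham arrays, so its ratio of 3.02 ± 0.42 (SE) (adjusted p = 0.0162) is set against spots that were not well above background. Taken as a bound, the signal of this probe was at least 7.48-fold higher on average, 2.90 on the log2 scale. On the single days it was at least 10.1, 16.1, 11.4, 3.68 and 3.43-fold higher. A second, brighter Mpeg1 probe was found on all 10 arrays. Its raw intensities were 702, 1561, 1626, 473 and 412 in TAB and 266, 132, 158, 177 and 165 in sham, with an average log2 ratio of 2.24. That is below the bound of the first probe, so the bound holds for that probe only and not for the gene. Both probes gave the same direction on all days, and both had their largest ratios on days 5 and 7.

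Ms4a7 and Ms4a6d belong to a family of membrane proteins with 4 spans that is strongly represented in macrophages. Ms4a7 measured 699, 865, 874, 427 and 182 in TAB and 104, 67.6, 90.5, 114 and 94.3 in sham. The TAB level was highest on days 5 and 7 and nearest to sham on day 28, and the groups did not overlap. The average was 2.51 ± 0.40 (SE), 5.7-fold, with 12.8-fold on day 5 (adjusted p = 0.021). Ms4a6d measured 833, 1134, 1238, 293 and 256 in TAB and 125, 179.6, 119, 100.5 and 179 in sham. Its TAB samples were likewise all above its sham samples, the average was 2.17 ± 0.42 (SE) and the adjusted p 0.0267. A second Ms4a6d probe gave an average log2 ratio of 2.06. Lyz1, one of the lysozyme genes, was the exception among the general markers. It measured 363, 562, 666, 359 and 361 in TAB and 308, 234, 234, 351 and 297 in sham, and only days 5 and 7 stood clear. The groups were only just apart, and the average of 0.66 ± 0.26 (SE) did not pass, with an adjusted p of 0.123. Lyz2, the myeloid lysozyme, has no probe under its symbol here, and since both genes are near-identical copies the Lyz1 probe cannot be read as Lyz1 alone.

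**Figure D3:**
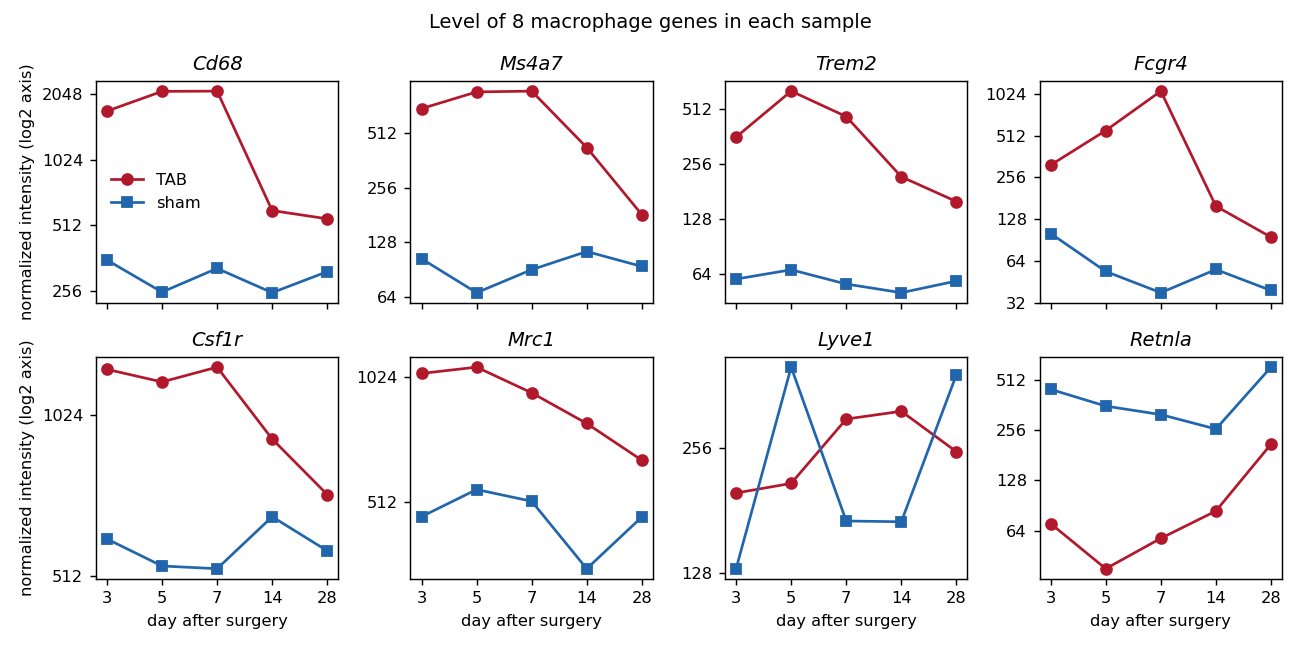
Normalized intensity (vertical axis, log2-spaced) of 8 genes in each of the 10 samples against day after surgery (horizontal axis, equal spacing), TAB as red circles and sham as blue squares, 1 sample per point. Cd68, Ms4a7, Trem2, Csf1r and Mrc1 lie above sham on all days, Fcgr4 peaks at 1073 on day 7, the Lyve1 lines cross, and Retnla lies below sham on all days.

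Of the 7 genes linked to resident macrophages, Mrc1, F13a1 and Pf4 rose, and Timd4, Lyve1, Folr2 and Cd163 did not pass the test. The median average log2 ratio was 0.56 for the 7 and 0.24 for those 4. Mrc1, the mannose receptor CD206, measured 1045, 1083, 938, 791 and 644 in TAB and 471, 547, 513, 352 and 469.6 in sham. All TAB values were above all sham values. The average was 0.93 ± 0.14 (SE), 1.9-fold (adjusted p = 0.0185), and its largest ratio came on day 14, when the sham value was lowest. F13a1, the A subunit of coagulation factor XIII, measured 667, 727, 908, 688 and 643 in TAB and 387, 513, 489.9, 462 and 544 in sham. The groups did not overlap, the average was 0.60 ± 0.13 (SE) and the adjusted p 0.0332. Pf4, the chemokine platelet factor 4, which platelets also carry, measured 3066, 2933, 3781, 2408 and 2508 in TAB and 1802, 1565, 1849, 1712 and 2035 in sham. Every TAB value was above every sham value, with the highest on day 7, and the average was 0.70 ± 0.14 (SE) (adjusted p = 0.0293).

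Timd4 encodes TIM-4, a receptor for phosphatidylserine on dying cells and the usual mark of long-lived resident macrophages. It measured 57.7, 48.1, 63.2, 50.3 and 63.2 in TAB and 59.2, 57.1, 71.3, 62.1 and 72.01 in sham. TAB was the lower sample on each of the 5 days, but by little, and the groups overlapped. The average of −0.19 ± 0.10 (SE) did not pass (adjusted p = 0.222), and it was negative in all 15 alternative settings. Folr2, a folate receptor, measured 480.5, 345, 428, 224 and 270.5 in TAB and 222, 201, 252, 234 and 237 in sham. The 3 early TAB samples were above all sham samples, the day 14 one was within the sham range and the day 28 one just above it. Its average was 0.56 ± 0.20 (SE), adjusted p = 0.0976, and 4 alternative settings brought it past the threshold. Cd163, the receptor for haemoglobin bound to haptoglobin, measured 339.6, 397, 483, 553 and 612 in TAB and 295, 521, 294, 358 and 446 in sham. Its TAB level was higher on each later day, the sham values scattered, and the groups overlapped. The average was 0.32 ± 0.18 (SE) (adjusted p = 0.261).

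Lyve1, a hyaluronan receptor of both resident macrophages and lymphatic vessels, measured 199, 210.3, 299.98, 313 and 251 in TAB and 131, 399.6, 171, 170.1 and 383 in sham. The sham samples of days 5 and 28 were well above the other 3 sham samples, and on those days TAB was the lower. Its average of 0.15 ± 0.32 (SE) did not pass (adjusted p = 0.775) and changed sign without the day 7 or the day 14 pair. The SD of its log2 sham values was 0.742, the highest of the 39 genes, whose median was 0.242. Of 3 lymphatic genes tested, Pdpn was higher (1.76), Prox1 was lower (−0.59) and Flt4 did not pass (−0.13). Their summed level was 816 to 1762 in TAB and 467 to 724 in sham. Most of it was the Pdpn probe, at 636 to 1583 in TAB and 258 to 387 in sham, so the sum does not stand for all 3 genes. The part of lymphatic vessels in the Lyve1 values was not tested.

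Among the 7 genes linked to recruited or injury-associated macrophages, Trem2, Clec4n, Fcgr4, Msr1 and Gpnmb rose, and Lgals3 and Clec7a did not pass. The median average log2 ratio was 1.59. Trem2, a lipid receptor of macrophages and microglia, measured 359.95, 642, 466, 218 and 159.7 in TAB and 60.1, 67.6, 56.5, 50.6 and 58.7 in sham. The sham samples lay within a narrow band and every TAB sample lay far above it, the day 28 one included. Its average was 2.49 ± 0.28 (SE), 5.6-fold, with 9.5-fold on day 5 (adjusted p = 0.0126). Clec4n, the lectin receptor dectin-2, measured 249, 374, 277, 178 and 100.03 in TAB and 52.7, 57.1, 52.8, 56.6 and 50.1 in sham. The groups were again fully apart, with an average of 1.999 ± 0.26 (SE), 3.997-fold (adjusted p = 0.0154). Msr1, the scavenger receptor SR-A, measured 222, 298, 265, 154 and 117 in TAB and 101, 98.7, 109.6, 104 and 80.2 in sham. Each TAB value was above each sham value, and the average was 1.02 ± 0.19 (SE) (adjusted p = 0.025). A second Msr1 probe was under the intensity minimum and was found on the day 5 and day 7 TAB arrays only, where it was at least 8.95 and 4.33-fold higher.

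Fcgr4, an activating receptor for IgG on monocytes, macrophages and neutrophils, measured 314, 558, 1073, 159 and 94.99 in TAB and 101, 53.7, 37.8, 55.5 and 39.2 in sham. The TAB level was highest on day 7, and the sham spot of that day was the 1 sham spot not found, so Fcgr4 was at least 28.4-fold higher there. The sham sample of day 3 was above the TAB sample of day 28, so the groups overlapped, although TAB was the higher on each day. The average was 2.53 ± 0.56 (SE) (adjusted p = 0.0345). The spot was found on the 5 TAB arrays and the other 4 sham arrays. Gpnmb, a glycoprotein of macrophages laden with lipid or debris, measured 177, 126, 185, 52.4 and 42.1 in TAB and 30.4, 42.5, 29.9, 22.5 and 42.9 in sham. Days 3, 5, 7 and 14 were above all sham values and day 28 was level with its sham sample. The average was 1.59 ± 0.40 (SE) (adjusted p = 0.0455), and the sham spots of days 7 and 14 were not found. With 50 added before the logarithm its ratio was 0.89. A second Gpnmb probe, found on no array, averaged 0.52, and with the mean of both probes the ratio was 1.05.

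Lgals3, the lectin galectin-3, measured 35.4, 50.2, 45.5, 26.3 and 40.3 in TAB and 42.8, 21.02, 31.003, 25.3 and 21.6 in sham. These are low levels, found on 4 arrays of each operation, and on day 3 sham was the higher. Its average of 0.50 ± 0.24 (SE) did not pass (adjusted p = 0.195). Clec7a, the beta-glucan receptor dectin-1, measured 189, 265, 207, 166 and 144 in TAB and 144, 97.7, 135, 166 and 96.1 in sham. The 3 early TAB samples were above all sham samples, and the 2 late ones were not. The average was 0.61 ± 0.21 (SE) (adjusted p = 0.0946), and 3 alternative settings brought it past the threshold.

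Set side by side, the recruited-linked genes had the higher median log2 ratio on each of the 5 days. The medians were 1.64 against 0.77 on day 3, 1.59 against 0.50 on day 5 and 2.39 against 0.81 on day 7. They were 1.22 against 0.57 on day 14 and 0.90 against 0.24 on day 28. The difference was largest on day 7, at 1.58, and smallest on day 14, at 0.65. The ranges of the single genes overlapped on days 3, 7, 14 and 28. On day 5 they did not, with the highest resident-linked ratio at 0.98 and the lowest recruited-linked ratio at 1.25. With the resident group held to Timd4, Lyve1, Folr2 and Cd163 the differences were 1.24, 1.91, 1.65, 0.94 and 0.90. No test was made between the groups, whose genes were picked by name and share samples, so the medians are descriptions. By the count of calls, 5 of 7 recruited-linked genes and 3 of 7 resident-linked genes were higher, against 9.19% of all genes. Without the day 3, the day 5 or the day 7 pair, none of them passed. With 50 added before the logarithm, which damps dim probes, the recruited-linked median of the averages was 0.89, and with the mean of all probes of a gene it was 1.05, the value of Gpnmb.

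**Figure D4:**
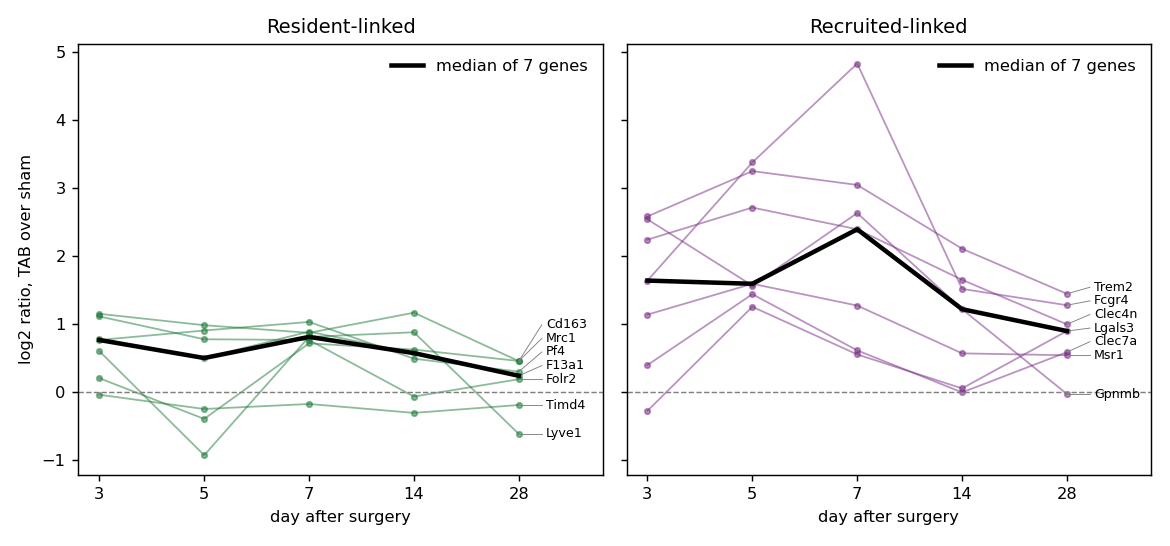
Log2 ratio of TAB over sham (vertical axis) by day after surgery (horizontal axis, equal spacing) for 7 resident-linked genes (left) and 7 recruited-linked genes (right), thin lines for single genes and the thick line for their median. The resident-linked median stays between 0.24 and 0.81, and the recruited-linked median runs from 0.90 on day 28 to 2.39 on day 7.

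Of the alternative activation markers, Retnla fell. It encodes RELM-alpha (Fizz1), a secreted protein that macrophages make under interleukin-4 and that is also made elsewhere, adipose tissue among others. Its intensities were 70.7, 38.1, 57.8, 84.1 and 211 in TAB and 448, 356, 317, 259.5 and 608 in sham. The highest TAB sample, that of day 28, was under the lowest sham sample, that of day 14. The log2 ratios were −2.66, −3.22, −2.45, −1.63 and −1.53 by day, and the average was −2.30 ± 0.27 (SE) (adjusted p = 0.014). TAB thus held 0.203 of the sham level on average and 0.347 on day 28, the day nearest to sham. The spot was found on all 10 arrays. None of 6 adipocyte genes tested passed, and their summed level was 3888 to 9093 in TAB and 8112 to 10392 in sham. Most of that sum was the Fabp4 probe, at 3323 to 8758 in TAB and 7724 to 9990 in sham, with an average log2 ratio of −0.51. Adipoq, Plin1, Car3, Cidec and Retn averaged −0.10, −0.09, 0.08, 0.03 and −0.26, so the sum is no measure of adipose tissue. Mgl2 and Clec10a, lectins often named beside Retnla, averaged −0.26 and 0.29 with adjusted p-values of 0.267 and 0.517. The part of other cell types in the Retnla values was not tested. Chi3l3, another gene of this group, has no probe under its symbol here.

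**Figure D5:**
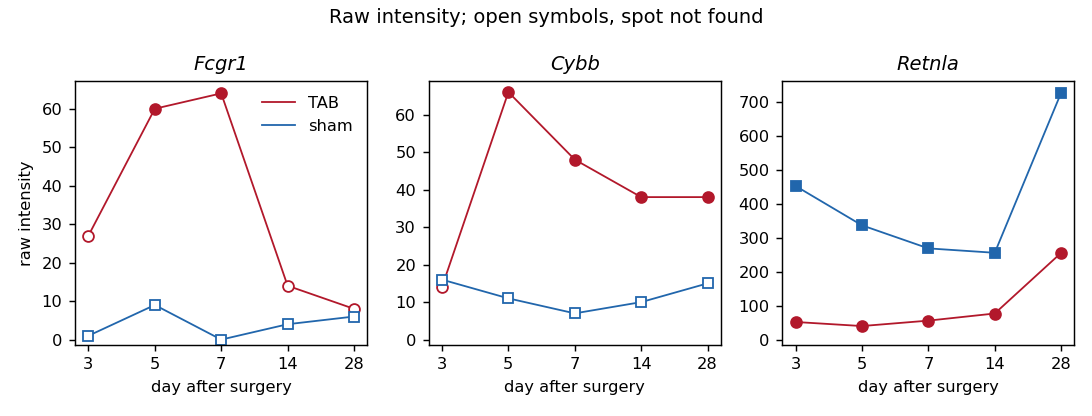
Raw intensity (vertical axis, linear, arbitrary units) of Fcgr1, Cybb and Retnla in the 10 samples by day after surgery (horizontal axis, equal spacing), TAB as red circles and sham as blue squares. Open symbols are spots listed as not found. Fcgr1 is found in TAB on days 5 and 7 only, Cybb on 4 TAB arrays and no sham array, and Retnla on all arrays.

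The Fc receptors bind antibody, and Fcer1g and Tyrobp are the adaptor chains through which many of the activating receptors of myeloid cells signal. All 5 tested genes of this group were higher, with a median average log2 ratio of 1.29. Fcer1g measured 2258, 2573, 2204, 947 and 912 in TAB and 642, 443, 471, 415 and 481 in sham. Its TAB values were all above its sham values and were highest on days 3, 5 and 7, and its average was 1.74 ± 0.26 (SE) (adjusted p = 0.0186). Tyrobp (DAP12), the adaptor of Trem2, ranged over 183 to 505 in TAB and 119.8 to 159.8 in sham, an average of 1.13 ± 0.27 (SE). The activating receptor Fcgr3 ranged over 811 to 2056 against 479 to 624, with 1.40 ± 0.24 (SE). The inhibitory receptor Fcgr2b ranged over 261 to 979.6 against 215 to 257, with 1.29 ± 0.31 (SE). The inhibitory and the activating receptors thus rose together, and the day 28 level of Fcgr2b, 261, was close to its sham range. Sirpa, the receptor for the CD47 signal that restrains uptake, ranged over 617 to 1270 against 402 to 601 and averaged 0.87 ± 0.18 (SE). The adjusted p-values of Tyrobp, Fcgr3, Fcgr2b and Sirpa were 0.0399, 0.0226, 0.04 and 0.0312. The Fcgr genes are close relatives, and how far their probes cross-hybridize was not tested.

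Fcgr1, the high-affinity IgG receptor CD64 of monocytes and macrophages, was under the intensity minimum and not tested. Its raw intensities were 27, 60, 64, 14 and 8 in TAB and 1, 9, 0, 4 and 6 in sham. The spot was found on the TAB arrays of days 5 and 7 only, at least 5.99 and 4.62-fold above sham. With values below 1 set to 1, and with the 3 TAB spots not found kept, the fit gave an adjusted p of 0.0847.

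The NADPH oxidase makes superoxide in phagocytes from the membrane subunits Cybb and Cyba and cytosolic subunits that include Ncf1 and Ncf4. The first 3 rose and Ncf4 did not pass, and the median average log2 ratio was 0.82. Cybb measured 19.1, 64.4, 49.6, 42.1 and 27.7 in TAB and 13.4, 11.8, 8.24, 10.03 and 12.1 in sham. It was dim, found on 4 TAB arrays and on no sham array, so its ratio of 1.76 ± 0.33 (SE) (adjusted p = 0.026) is set against spots that were not well above background. With 50 added before the logarithm its ratio was 0.55 (limma adjusted p = 0.0163). On days 5, 7, 14 and 28, where TAB found it, Cybb was at least 5.44, 3.49, 4.2 and 2.29-fold higher. Cyba ranged over 559 to 1056 in TAB and 427 to 512 in sham and averaged 0.77 ± 0.19 (SE) (adjusted p = 0.0416). Ncf1 ranged over 144 to 281 against 106 to 136 and averaged 0.87 ± 0.20 (SE) (adjusted p = 0.0361). Both had TAB values that were all above their sham values. Ncf4 was higher on the early days and lower than sham on day 14, with an average of 0.48 ± 0.21 (SE) and an adjusted p of 0.164.

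The pan-leukocyte genes are expressed by white blood cells of many kinds. Laptm5, Coro1a, Cd53 and Ptprc rose, Plek and Lcp1 did not pass, and the median was 1.28. Laptm5, a lysosomal protein of blood cells, measured 3036, 4933, 3573, 1964 and 1582 in TAB and 1143, 749.8, 873, 934 and 965 in sham. Its groups did not overlap, the day 5 TAB sample was highest at 6.58-fold, and the average was 1.59 ± 0.30 (SE) (adjusted p = 0.0261). Coro1a, an actin regulator of leukocytes, ranged over 501 to 1615 in TAB and 256 to 417 in sham, with an average of 1.45 ± 0.31 (SE). Cd53, a tetraspanin, ranged over 341 to 1078 against 256 to 321, with an average of 1.30 ± 0.29 (SE). Ptprc, the common leukocyte antigen CD45, ranged over 148 to 417 against 84.2 to 132, with an average of 1.26 ± 0.25 (SE). The adjusted p-values of Coro1a, Cd53 and Ptprc were 0.0324, 0.0363 and 0.0275. In all 3 the TAB values lay above the sham values, and for Cd53 the day 28 value of 341 exceeded the highest sham value by little. Plek, pleckstrin, measured 328, 458, 539, 306 and 229 in TAB and 194, 136, 193, 208 and 205 in sham. The groups did not overlap, and with an adjusted p of 0.0534 its average of 0.94 ± 0.25 (SE) was just outside the threshold. Just inside it were Gpnmb at 0.0455 and Cyba at 0.0416. Lcp1, plastin-2, averaged 0.47 ± 0.23 (SE) (adjusted p = 0.205) and was lower than sham on day 28.

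PU.1 binds DNA at a core of GAGGAAGT or close relatives of it, so the promoters of the genes were searched for these letters. RefSeq promoters of the build GRCm38.p6, running from 250 bases before to 50 after the start, were at hand for 33 of the 44 genes. GAGGAAGT or its reverse complement stood in those of 5 genes, Cd53, F13a1, Fcgr4, Pf4 and Retnla, which is 15.2% of the 33, and in those of 3.69% of all 27025 genes in the table. The shorter AGGAAGT, which the longer string contains, stood in 12 of the 33 (36.4%) and in 10.7% of all genes. For comparison, TATAAA stood in 5 of the 33 (15.2%) and in 15.7% of all genes. In all 10 strings were searched on both strands, and the counts are descriptions with no test. The match lies before the start in Fcgr4, Pf4 and Retnla, and these stretches are shown because the first 2 genes rose and the third fell while holding the same letters. Each is written 5′ to 3′ on the plus strand, which is the strand of the gene, and the capitals mark the reverse complement of GAGGAAGT.
Fcgr4, chr1:171018882-171018925, plus strand: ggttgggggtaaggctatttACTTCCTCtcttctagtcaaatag
Pf4, chr5:90772405-90772434, plus strand: tgtcattgcttctgcagagcACTTCCTCat
Retnla, chr16:48842391-48842438, plus strand: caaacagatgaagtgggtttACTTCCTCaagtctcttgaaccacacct
The match begins 24 bases before the start in Fcgr4, 10 in Pf4 and 198 in Retnla. In Cd53 and F13a1 it lies at or after the start. A match of letters is no sign that a factor binds there, and no binding was measured.

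Other genes of macrophage biology that are not on the list went mostly the same way. Of 26 tested, 17 were higher, 1 was lower and 8 did not pass, and their median average log2 ratio was 0.82. Of 6 genes of ITAM signalling, the pathway through which Fcer1g and Tyrobp act, 5 were higher, Syk, Plcg2, Btk and Vav1 among them, with the kinase Btk at 1.85 ± 0.18 (SE). Of 8 genes listed for uptake and adhesion, 7 were higher, among them Cx3cr1, the fractalkine receptor, at 2.21 ± 0.37 (SE) and Mertk, a receptor for dying cells, at 0.55 ± 0.11 (SE). The fatty acid translocase Cd36, which cardiomyocytes and endothelium express too, was lower at −0.95 ± 0.15 (SE). Of 7 transcription factors, Irf8, Cebpa and Maf were higher, and the other 4 did not pass. The 2 further oxidase genes did not pass.

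Markers of other cells are given here beside the 9.19% of all genes called higher and 7.87% called lower. Of 7 monocyte genes tested, Ccr2, Vcan, Itgam, Cd14 and S100a4 were higher, and the summed level of the list was 1800.2 to 4304 in TAB and 1056 to 1350.4 in sham. The largest part of that sum was the S100a4 probe, at 992 to 2654 in TAB and 463 to 784 in sham. Ccr2, the receptor that draws monocytes out of the blood, measured 175, 225, 208, 78.9 and 62.4 in TAB and 40.9, 27.99, 43.96, 37.5 and 23.7 in sham. Its TAB samples were all above its sham samples and were highest on the early days, with an average of 1.96 ± 0.29 (SE) (adjusted p = 0.0179). In the other blood cell lists few genes passed. Of 9 neutrophil genes 1 was higher, S100a8, whose spot was not found on any array, and the summed level was 326 to 594 in TAB and 369.5 to 440.05 in sham. Camp and Elane were not found on any array either. Of 4 dendritic cell genes none passed, with sums of 188 to 320.3 in TAB and 154 to 203 in sham. Of 8 genes of T, B and NK cells, Cd3d, found on 2 TAB arrays and no sham array, was higher and Cd3e, found on all 10, lower, with sums of 461 to 592 in TAB and 574 to 804 in sham. Kit, 1 of 4 mast cell genes, was higher, and those sums were 459 to 584 in TAB and 494 to 564 in sham. Of 3 fibroblast genes Lum was higher, and of 5 blood endothelial and 7 cardiomyocyte genes none passed. The part of these cells in the values of the genes they share with macrophages, such as Fcgr4, Ptprc and Coro1a, was not tested.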

How the data were processed

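Left-ventricle RNA was labelled with Cy5 and hybridized to Phalanx Mouse Whole Genome OneArray v2 arrays, 1 sample per array, and scanned with an Agilent scanner and GenePix. The authors deposited a raw intensity per probe, background-subtracted by a method not given in the sources used here, and a flag score, whose negative value was read as "spot not found". The deposited p-values per probe were not used. Arrays were brought to the mean of their medians. A minimum of 1 on that scale, required in all samples, left out 6447 of 26423 probes. Quantile normalization over the 10 arrays set each rank to its median. Where a gene has several probes, the one whose absolute log2 ratios summed highest over the days stands for it. The 3633 probes with no symbol were left out. Symbols are those of the deposited table.

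Tests used limma 3.58.1 (lmFit and eBayes) in R 4.3.3, tables Python 3.11.15 with pandas 2.3.3 and numpy 2.4.6. With 1 sample per operation and day, p-values measure the spread of the ratio over days, which holds change with time as well as animal and array differences. Samples were paired by day after surgery, as the study's ratios are, and deviations of TAB and sham from their group means correlated at 0.113, −0.0165, 0.0065, 0.0029 and 0.0140 by day. In simulated data for 16113 genes, 67, 67 and 66 genes were given log2 changes of 1, 2 and 3. For the average TAB effect 53.7, 80.6 and 90.9% of these were recovered, with 9 false calls. For the difference between early and late days 0, 14.9 and 47.0% were, with 2. The real data had far more calls, 1481 higher and 1268 lower. The simulated noise was the residual spread of the real fit, which holds change with time. The percentages are thus no measure of the power of these tests.

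A probe not found on any array of an operation counts as not well above background in it. Its fold is then a bound, the mean of the found group over the lowest signal among found spots of each array or the dim probe's own, whichever is higher. Values in every sample are given for the 12 genes with the largest average ratios among those found on all arrays of 1 operation, for Csf1, Csf1r, Spi1, Cd68 and Emr1, and for the resident-linked and recruited-linked groups. Alternatives were another scaling, other filters, other probes per gene, no block, limma's trend and robust settings, and each day left out. Leaving out probes not found on an array, the adipocyte list, the older symbol and the 10 promoter strings were added after the data were seen. Some genes of these lists are not reported here. The genes and lists were chosen with earlier results of these data known.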

Additional observations from a re-analysis of the deposited data

Results flagged for a closer look

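Plek, a pan-leukocyte gene, had 1 sham sample far from the others. The day 5 sham intensity was 136 and the other sham samples lay between 193 and 208, and on the log2 scale the gap to the nearest was 0.821 of the whole range of the 5 samples. Of 78 groups of 5 samples tested, 39 genes in both operations, this was the 1 beyond the 95% limit, and chance alone flags about 1 in 20 groups. The day 5 ratio of Plek, 1.75 on the log2 scale, is its largest and uses that sample.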

How the results depend on the processing

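For the 39 genes, the count called higher was 27 in the main setting, 7 when probes below 1 became 1 and 0 to 28 with 1 day left out, and the count called lower was 1 and, with 1 day left out, 0 to 1. The other settings kept the count called higher within 1.5 times. For the early against late days, 0 genes were called in the main setting and 1 with trend and robust on. By day, the count up-regulated on day 3 was 8, but 18 with 50 added before log2, 13 with probes not found on 1 or more arrays left out and 24 with a log2 ratio of at least 1. On day 5 it was 17, and 29 with a log2 ratio of at least 1, and on day 7 17 and 26. On day 14 it was 7, but 3 with probes below 1 set to 1, 12 with 50 added and 13 with a ratio of at least 1. On day 28 it was 2, but 0 with probes below 1 set to 1, 4 with 50 added, 1 with the brightest probe, which loses Mpeg1, and 4 with a ratio of at least 1. The resident-linked median was 0.56 for 7 genes and 0.24 for 4, and the recruited-linked median 1.59, but 0.89 with 50 added and 1.05 with the mean of all probes, the Gpnmb value in each. The cause of these shifts was not tested.

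Called values did not change sign in any alternative. Csf1, not called at −0.09, was 0.0030 under median scaling only and 0.0041 without day 7 (−0.175 to 0.0041 with 1 day left out). Lyve1, not called at 0.15, was −0.014 without day 7 and −0.031 without day 14 (−0.031 to 0.42 with 1 day left out). Over all genes, 1481 were higher and 1268 lower, whereas probes below 1 set to 1 gave 458 and 217 and 50 added gave 2240 and 2225. The lower count was 1951 without the dimmest tertile of genes, 2032 with probes not found left out and 2064 with trend and robust on. With 1 day left out, the higher count was 20 to 1482 and the lower 1 to 1271. The fit with no replicate block, the alternative to the pairing by day, called 27 of the main calls and Lyz1 and Plek besides, 29 in all.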
